A study of Mus musculus with 4 samples.

Results

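The matrix metalloproteinases (MMPs), the ADAMTS proteases and their tissue inhibitors (TIMPs) were followed in RNA-seq of mouse pancreatic islet material. Genes were taken by symbol in the GRCm38 annotation, as Mmp followed by digits with an optional letter, Adamts followed by digits, and Timp1 to Timp4. This gave 46 of 55421 gene identifiers, of which 23 were MMP genes, 19 ADAMTS genes and 4 TIMP genes. Every library came from WT (wild-type) mice of the C57BL/6 strain, and the labels name the material as macrophages of the islet. High-fat feeding (HFD), a regime that makes mice obese, is represented by 2 libraries and normal chow (NCD) by 2 libraries. Age, sex, feeding time and the number of animals per library were not stated, so a p-value here sets the difference between diets against library-to-library spread, whose source (animals or handling) is unknown.

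MMPs are zinc-dependent endopeptidases that are made as inactive precursors and cut collagens, proteoglycans, cytokines and each other. They are sorted by substrate and structure into collagenases, gelatinases, stromelysins and membrane-type enzymes, the last being anchored in the cell surface. ADAMTS enzymes are related secreted proteases with thrombospondin repeats, and their substrates include aggrecan, versican, procollagen and von Willebrand factor. TIMPs bind MMPs in their active site, and TIMP3, which is held in the matrix, is the member known to block ADAMTS4 and ADAMTS5. In islets these enzymes act on the basement membrane and the thin matrix around capillaries and endocrine cells.

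The libraries held 61855337 and 56740720 counts in HFD and 64490097 and 62171973 counts in NCD. Values of single genes are CPM, counts per 1000000 of the library size after TMM scaling, a correction for differences in RNA composition. Sums over several genes are CPM on unscaled library totals. Summed over 10 macrophage markers the level was 589 and 609.7 CPM in HFD, against 546 and 525 CPM in NCD, while 7 beta cell markers summed to 13509.5 and 14109 CPM in HFD, against 17308 and 17780.3 CPM in NCD. Hormone transcripts of beta cells thus took far more counts than macrophage transcripts in material labelled as islet macrophages. Most of the beta cell sum came from Ins2, Iapp and Ins1, with means of 8522, 3541 and 1566 CPM in HFD. Mafa, Slc2a2, G6pc2 and Pdx1 had means of 27.2 to 94.2 CPM in HFD. These lay within the range of the macrophage markers, from 8.48 CPM for Fcgr1 to 122 CPM for Cd68. In such mixed material a change in the number of cells of a type and a change in RNA per cell cannot be told apart.

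Transcripts of most of these proteases were more abundant in HFD, from 24.4-fold for the gelatinase gene Mmp9 to 1.48-fold for the macrophage elastase gene Mmp12. Timp1 and Timp2 also rose, by 4.81-fold and 1.94-fold, whereas Timp3, the inhibitor with the most counts, did not pass the test. Of the 46 genes, 44 had a count in some library and 40 had enough counts to be tested. Mmp1a and Mmp21 had no count, and Mmp1b, Mmp20, Adamts16 and Adamts19 had 4 or 5 counts at most in any library. In edgeR's quasi-likelihood test over 21563 genes, 27 of the 40 tested members were higher in HFD (Benjamini-Hochberg adjusted p under 0.05), 1 was lower and 12 did not pass. Over all tested genes 17.9% were higher and 14.5% lower. The median log2 change was 1.26 over the tested members and 0.0026 over all tested genes. Among members with a count in NCD a called rise of at least 8-fold was seen in 7, Mmp3, Mmp9, Mmp19, Mmp23, Mmp25, Adamts2 and Adamts14, against 1.93% of the 21319 tested genes with a count in NCD. Adamts20 had no count in NCD, so its fitted change depends on the prior count and is not given.

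Both HFD libraries lay above both NCD libraries in 29 of the 40 tested members, against 34.5% of all tested genes. Both lay below in 2, Mmp24 and Timp3, against 33.2% of all tested genes. The diets overlapped in 9, of which Mmp10, Mmp16, Mmp27, Adamts3 and Adamts8 had under 1 CPM on average in each diet.

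**Figure D1:**
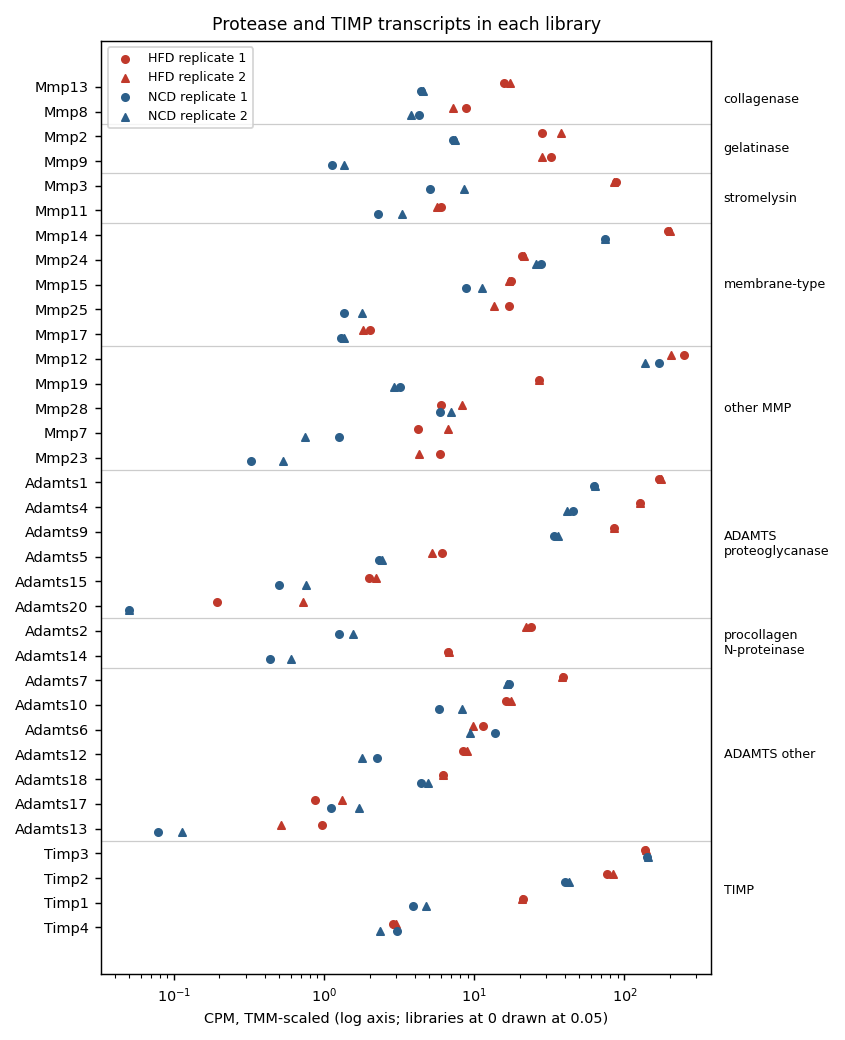
TMM-scaled CPM (log axis) of the 35 members with at least 1 CPM in a diet or a passed test, 1 point per library, HFD in red and NCD in blue, grouped by class. Red points lie to the right of blue points for most genes, while Timp3, Adamts6 and Mmp28 did not pass the test and Mmp24 lies lower in HFD.

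**Figure D2:**
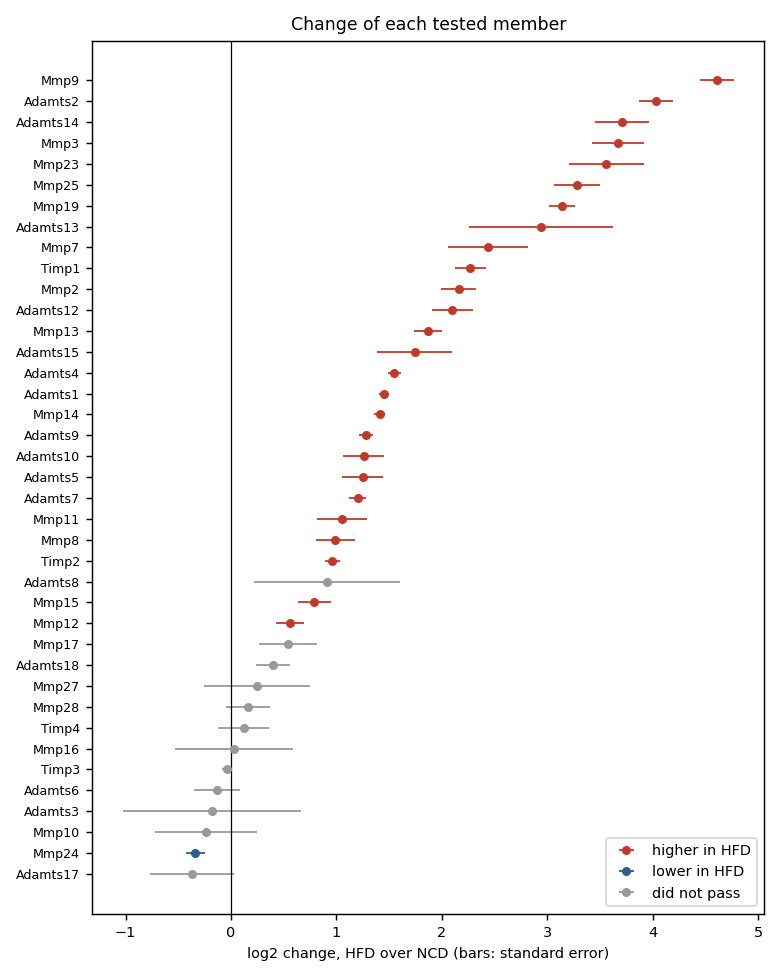
Log2 change, HFD over NCD, of 39 tested members with the standard error as bars, Adamts20 being left out because it had no count in NCD. Red marks genes higher in HFD, blue the gene lower in HFD and grey those that did not pass. Mmp9, Adamts2, Adamts14 and Mmp3 have the highest changes drawn.

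Both gelatinase genes rose. Gelatinases cut denatured collagen and the type IV collagen of basement membranes. Mmp9, a gelatinase of leukocytes and stimulated epithelium, had 32.2 and 28.4 CPM in HFD, against 1.13 and 1.35 CPM in NCD, and Mmp2, a gelatinase of fibroblasts, had 28.0 and 37.5 CPM in HFD, against 7.17 and 7.45 CPM in NCD. The diets were far apart for both genes, and within HFD the second library was higher for Mmp2 and lower for Mmp9. The log2 change of Mmp9 was 4.61 ± 0.158 (SE; edgeR adjusted p = 6.70e-05) and that of Mmp2 was 2.16 ± 0.165 (SE; edgeR adjusted p = 6.03e-04). Mmp2 took most of the gelatinase counts in NCD, 85.5%, and 51.9% in HFD. Per kilobase of exon, the HFD level was 8.56 CPM for Mmp9 and 9.71 CPM for Mmp2. Summed, the gelatinases reached 60.3 and 65.7 CPM in HFD, against 8.3 and 8.8 CPM in NCD, a ratio of 7.37.

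Of 4 collagenase genes, which encode the enzymes that cut triple-helical collagen, Mmp8 and Mmp13 were tested and both rose. Mmp13, the main interstitial collagenase of rodents, had 15.7 and 17.3 CPM in HFD, against 4.44 and 4.57 CPM in NCD (log2 change 1.87 ± 0.132, SE; edgeR adjusted p = 4.75e-04). Mmp8, named neutrophil collagenase, had 8.77 and 7.21 CPM in HFD, against 4.27 and 3.76 CPM in NCD (log2 change 0.99 ± 0.183, SE; edgeR adjusted p = 0.0117). Their libraries did not overlap between diets, but the call for Mmp8 was lost without HFD replicate 1 (edgeR adjusted p = 0.0545). The other 2 collagenase genes, Mmp1a and Mmp1b, the mouse relatives of human MMP1, had at most 4 counts in any library. Summed, the collagenases stood at 24.5 and 24.5 CPM in HFD, against 8.7 and 8.33 CPM in NCD.

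Among the stromelysins, which cut proteoglycans, fibronectin and other MMP precursors, Mmp3 and Mmp11 rose and Mmp10 did not pass. Mmp3 (stromelysin 1) had 88.2 and 85.0 CPM in HFD, against 5.04 and 8.54 CPM in NCD (log2 change 3.67 ± 0.248, SE; edgeR adjusted p = 4.20e-04). The HFD libraries were close to each other, and the second NCD library was higher than the first. Mmp10 (stromelysin 2), its near relative, had 0.921 and 0.53 CPM in HFD, against 1.04 and 0.676 CPM in NCD and did not pass (edgeR adjusted p = 0.757), with overlapping diets. Mmp11 (stromelysin 3), which is activated inside the cell by furin, had 6.01 and 5.6 CPM in HFD, against 2.3 and 3.3 CPM in NCD (log2 change 1.05 ± 0.238, SE; edgeR adjusted p = 0.0228). Leaving out HFD replicate 1, HFD replicate 2 or NCD replicate 1 ended its call (edgeR adjusted p = 0.0822, 0.0669 and 0.0646). Mmp11 shares 155 exon bases with Chchd10 on the opposite strand, a gene with 4526 and 4537 counts in HFD and 14491 and 10279 counts in NCD. Mmp3 made up 93.0% of the stromelysin counts in HFD and 65.0% in NCD, and the class summed to 95.2 and 90.9 CPM in HFD, against 8.37 and 12.5 CPM in NCD.

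The membrane-type enzymes split, with 3 genes higher, 1 lower and 2 not passing of 6 tested. Mmp14, encoding MT1-MMP, the collagenase of the cell surface that activates the MMP2 precursor together with TIMP2, had 195 and 201 CPM in HFD, against 74.3 and 74.2 CPM in NCD (log2 change 1.41 ± 0.0494, SE; edgeR adjusted p = 6.70e-05). Replicates of Mmp14 differed little, and it made up 78.0% of the class in HFD and 65.0% in NCD. Mmp25, encoding the lipid-anchored MT6-MMP known from leukocytes, had 17.0 and 13.5 CPM in HFD, against 1.35 and 1.79 CPM in NCD (log2 change 3.28 ± 0.221, SE; edgeR adjusted p = 4.19e-04). Mmp15, encoding MT2-MMP of epithelia, had 17.6 and 16.9 CPM in HFD, against 8.73 and 11.2 CPM in NCD (log2 change 0.79 ± 0.155, SE; edgeR adjusted p = 0.014), and its call was lost without HFD replicate 1 (edgeR adjusted p = 0.0528).

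Mmp24 moved the other way. It encodes MT5-MMP, a membrane-type enzyme known mainly from neurons, and had 20.6 and 21.5 CPM in HFD, against 27.7 and 25.6 CPM in NCD (log2 change -0.34 ± 0.0906, SE; edgeR adjusted p = 0.0373). The fall was small and its call was lost without any 1 of the 4 libraries (edgeR adjusted p = 0.0667 to 0.158). It was also lost without the count filter (edgeR adjusted p = 0.057). Mmp24 shares 13.6% of its exon bases with BC029722 on the opposite strand, which had 3243 and 3095 counts in HFD and 3938 and 4230 counts in NCD. Beta cell markers fell with it, 5 of 7 passing as lower against 14.5% of all tested genes, and their part in the result was not tested. Mmp17, lipid-anchored like Mmp25, had 2.02 and 1.82 CPM in HFD, against 1.29 and 1.35 CPM in NCD and did not pass (edgeR adjusted p = 0.205). Mmp16 stayed under 1 CPM in all libraries.

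Of the 8 other MMP genes 6 were tested and 4 rose. Mmp12, the macrophage elastase, had the most counts of any member, with 248 and 206 CPM in HFD, against 170.2 and 137 CPM in NCD (log2 change 0.56 ± 0.133, SE; edgeR adjusted p = 0.0264). The replicates of Mmp12 spread more than those of Mmp14, and the call was lost without HFD replicate 1 or NCD replicate 2 (edgeR adjusted p = 0.0862 and 0.0665). Mmp19, a soluble MMP found in vessels and activated monocytes, had 26.8 and 26.9 CPM in HFD, against 3.18 and 2.91 CPM in NCD (log2 change 3.14 ± 0.12, SE; edgeR adjusted p = 9.06e-05). Mmp19 shares 22.3% of its exon bases with Tmem198b on the opposite strand, which had 808 and 846 counts in HFD and 651 and 634 counts in NCD. Mmp23, a cell-surface MMP without a hemopexin domain, had 5.86 and 4.27 CPM in HFD, against 0.326 and 0.531 CPM in NCD (log2 change 3.56 ± 0.357, SE; edgeR adjusted p = 0.00146). Mmp7 (matrilysin), an epithelial enzyme that activates defensins, had 4.2 and 6.7 CPM in HFD, against 1.26 and 0.74 CPM in NCD (log2 change 2.44 ± 0.381, SE; edgeR adjusted p = 0.00658). In each of these 4 genes both HFD libraries lay above both NCD libraries. Mmp28 (epilysin) had 6.03 and 8.3 CPM in HFD, against 5.89 and 6.97 CPM in NCD, with overlapping diets, and did not pass (edgeR adjusted p = 0.634). Mmp27 had 0.727 and 1.22 CPM in HFD, against 1.07 and 0.563 CPM in NCD and did not pass either.

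These genes include a cluster on chromosome 9, where 10 MMP genes lie within 427 kilobases (chr9:7272514-7699585, GRCm38). Along the chromosome their order is Mmp13, Mmp12, Mmp1b, Mmp3, Mmp1a, Mmp10, Mmp8, Mmp27, Mmp20 and Mmp7. Neighbours did not share a level. Per kilobase of exon, Mmp3 averaged 48.1 CPM per kilobase in HFD and 3.77 in NCD, while the genes on either side of it, Mmp1b and Mmp1a, had 4 counts or fewer in any library. Mmp13, Mmp12, Mmp3, Mmp8 and Mmp7 rose, Mmp10 and Mmp27 were tested and did not pass, and the other 3 were not tested. The changes that passed ran from 0.56 on the log2 scale for Mmp12 to 3.67 for Mmp3.

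**Figure D3:**
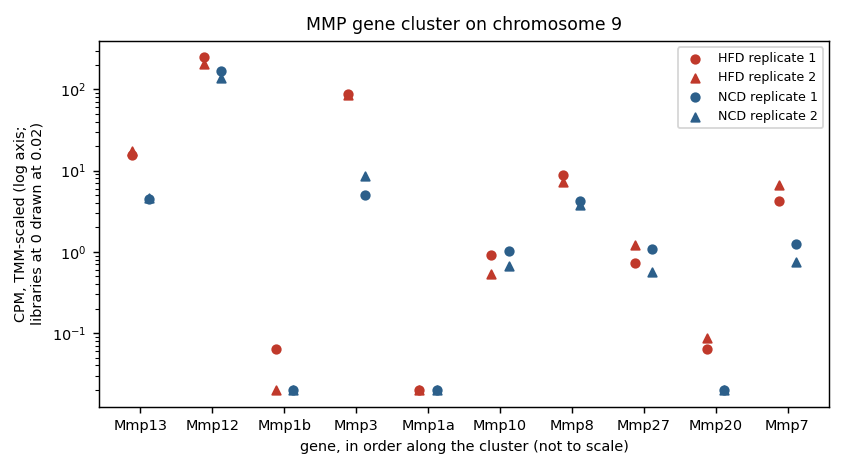
TMM-scaled CPM (log axis) of the 10 MMP genes of the chromosome 9 cluster in gene order, 1 point per library, HFD in red and NCD in blue. Mmp13, Mmp12, Mmp3, Mmp8 and Mmp7 have red points above blue ones, Mmp10 and Mmp27 overlap, and Mmp1b, Mmp1a and Mmp20 lie at or near 0.

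The promoters of the cluster share a motif that genes with and without a rise carry. RefSeq promoter windows (GRCm38.p6, 250 bases before to 50 bases after the start) were matched by symbol for 32 of the 46 members. They were searched on both strands for TGANTCA, the binding motif of AP-1, a transcription factor induced by growth factors and inflammatory signals. The motif was found in 8 of the 10 cluster genes and in none of the other 22 members matched, against 8.98% of 27018 genes. By change, 4 of 19 matched members that rose and 4 of 13 others held it. Of these 4 others only Mmp10 was tested, since Mmp1a, Mmp1b and Mmp20 had too few counts. Cluster genes with the motif include Mmp3, Mmp13, Mmp7 and Mmp12, which rose, Mmp10, which did not pass, and Mmp1a, which had no count. The 150 bases before the start of these 6 genes are shown with the motif in capitals, all on the plus strand, 5′ to 3′, from chr9:7445672-7445821, chr9:7272364-7272513, chr9:7691940-7692089, chr9:7347224-7347373, chr9:7502192-7502341 and chr9:7463991-7464140 in the order given.
Mmp3: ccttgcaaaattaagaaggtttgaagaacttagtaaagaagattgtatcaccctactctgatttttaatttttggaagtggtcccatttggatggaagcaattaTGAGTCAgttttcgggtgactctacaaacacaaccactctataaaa
Mmp13: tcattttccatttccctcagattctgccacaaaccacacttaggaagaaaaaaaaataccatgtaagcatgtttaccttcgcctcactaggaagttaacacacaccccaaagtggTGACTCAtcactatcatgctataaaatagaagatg
Mmp7: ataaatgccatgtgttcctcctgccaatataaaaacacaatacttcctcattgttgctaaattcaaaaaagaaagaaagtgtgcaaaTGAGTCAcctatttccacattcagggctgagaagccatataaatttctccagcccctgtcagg
Mmp12: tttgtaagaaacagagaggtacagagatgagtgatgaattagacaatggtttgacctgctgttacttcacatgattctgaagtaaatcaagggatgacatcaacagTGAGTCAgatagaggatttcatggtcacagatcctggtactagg
Mmp10: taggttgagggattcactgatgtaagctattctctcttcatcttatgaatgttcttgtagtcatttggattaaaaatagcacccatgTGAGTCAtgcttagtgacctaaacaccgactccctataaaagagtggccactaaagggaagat
Mmp1a: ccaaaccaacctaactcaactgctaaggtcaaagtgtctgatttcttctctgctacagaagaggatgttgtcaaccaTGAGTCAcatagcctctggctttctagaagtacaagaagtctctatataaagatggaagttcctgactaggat

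The motif's first base lies 46 bases before the start in Mmp3, 35 in Mmp13, 63 in Mmp7, 44 in Mmp12, 63 in Mmp10 and 73 in Mmp1a. Mmp12 and Mmp7 have a second window without it. TATAAA was found in 9 of the 10 cluster genes and in 11 of 32 members, against 15.7% of all genes. The GC box GGGCGG was found in 0 of 10 cluster genes and in 18 of 32 members, against 38.2% of all genes. Split by change, 13 of 19 matched members that rose and 5 of 13 others held the GC box. Its carriers include Mmp14, Adamts1, Adamts2, Timp1 and Timp2, which rose, Timp3 and Mmp28, which did not pass, and Mmp24, which was lower. A match to the NF-κB motif was found in 1 member, Mmp25, against 5.14% of all genes. Matches describe the letters of these windows, and overlaps between motifs were not excluded from the counts.

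ADAMTS genes rose widely, with 12 of 17 tested genes higher and none lower. The proteoglycanases, which cut aggrecan and versican, held most ADAMTS counts, with 393 and 394 CPM in HFD, against 146 and 144 CPM in NCD. Adamts1, an inflammation-induced enzyme that also restrains blood vessel growth, had 170.1 and 175 CPM in HFD, against 63.0 and 63.3 CPM in NCD (log2 change 1.45 ± 0.0509, SE; edgeR adjusted p = 6.70e-05). Adamts4 (aggrecanase 1) had 128 and 126 CPM in HFD, against 45.4 and 41.7 CPM in NCD (log2 change 1.55 ± 0.066, SE; edgeR adjusted p = 1.15e-04). Adamts9, a versican-cutting enzyme that endothelium expresses, had 85.8 and 84.7 CPM in HFD, against 34.1 and 36.0 CPM in NCD (log2 change 1.28 ± 0.064, SE; edgeR adjusted p = 1.81e-04). In these 3 genes the replicates lay close together and the diets far apart. Adamts5 (aggrecanase 2) had 6.09 and 5.25 CPM in HFD, against 2.33 and 2.43 CPM in NCD (log2 change 1.25 ± 0.195, SE; edgeR adjusted p = 0.00655). Per kilobase of exon, HFD levels were 26.4 CPM for Adamts4 and 0.525 CPM for Adamts5.

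Among the proteoglycanase genes with few counts, Adamts15 and Adamts20 rose and Adamts8 did not pass. Adamts15 had 1.97 and 2.23 CPM in HFD, against 0.496 and 0.756 CPM in NCD (log2 change 1.74 ± 0.358, SE; edgeR adjusted p = 0.0167). Adamts20 had 12 and 41 counts in HFD and none in NCD, which makes it at least 2.42-fold higher if NCD is set at a detection floor of 12 counts in each library (edgeR adjusted p = 0.0301). That limit rests on HFD replicate 2, since HFD replicate 1 alone had 0.194 CPM on unscaled totals, level with the floor of 0.19 CPM, and gives no fold. The call for Adamts15 was lost when either HFD library was left out (edgeR adjusted p = 0.0559 without replicate 1 and 0.0798 without replicate 2). That for Adamts20 was lost without NCD replicate 1 or NCD replicate 2 (edgeR adjusted p = 0.071 and 0.0679), and without HFD replicate 2 the gene had too few counts to be tested. Adamts8 had 0.905 and 0.512 CPM in HFD, against 0.558 and 0.193 CPM in NCD and did not pass (edgeR adjusted p = 0.379).

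The procollagen N-proteinases, which trim the amino end of fibrillar procollagens, had the highest class ratio of HFD over NCD at 13.9, with sums of 30.7 and 29.1 CPM in HFD, against 2.02 and 2.28 CPM in NCD. Adamts2 had 23.8 and 22.2 CPM in HFD, against 1.26 and 1.56 CPM in NCD (log2 change 4.03 ± 0.165, SE; edgeR adjusted p = 1.01e-04). Adamts14 had 6.7 and 6.82 CPM in HFD, against 0.434 and 0.595 CPM in NCD (log2 change 3.71 ± 0.254, SE; edgeR adjusted p = 4.36e-04). Adamts3, the third enzyme of this kind, had 0.258 and 0.141 CPM in HFD, against 0.326 and 0.129 CPM in NCD, with overlapping diets, and did not pass (edgeR adjusted p = 0.898). Their substrates moved with Adamts2 and Adamts14. Col1a1, the main chain of type I collagen, had 172 and 179.9 CPM in HFD, against 12.6 and 13.4 CPM in NCD, and Col3a1, the chain of type III collagen, had 527 and 537 CPM in HFD, against 22.4 and 22.2 CPM in NCD.

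Of 9 other ADAMTS genes 7 were tested and 4 rose. Adamts7 and Adamts12, related enzymes that cut cartilage oligomeric matrix protein, had 38.9 and 38.1 CPM in HFD, against 17.1 and 16.5 CPM in NCD for Adamts7 (log2 change 1.20 ± 0.0794, SE; edgeR adjusted p = 4.02e-04) and 8.38 and 8.89 CPM in HFD, against 2.25 and 1.79 CPM in NCD for Adamts12 (log2 change 2.10 ± 0.196, SE; edgeR adjusted p = 0.00117). Adamts10, an enzyme of fibrillin microfibrils, had 16.2 and 17.5 CPM in HFD, against 5.83 and 8.27 CPM in NCD (log2 change 1.26 ± 0.194, SE; edgeR adjusted p = 0.00633). In these genes the diets did not overlap. Comp, encoding cartilage oligomeric matrix protein, had 0.113 and 0.194 CPM in HFD, against 0.062 and 0 CPM in NCD, and was not tested. Adamts13, the protease of von Willebrand factor made by hepatic stellate cells, had 0.969 and 0.512 CPM in HFD, against 0.0775 and 0.113 CPM in NCD (log2 change 2.94 ± 0.681, SE; edgeR adjusted p = 0.0247). Its call was lost without any 1 of the 4 libraries (edgeR adjusted p = 0.0551 to 0.224). Vwf, encoding that substrate, had 71.3 and 71.5 CPM in HFD, against 13.6 and 15.9 CPM in NCD. Adamts6, Adamts17 and Adamts18 did not pass (edgeR adjusted p = 0.71, 0.55 and 0.121). Adamts6 had 11.3 and 9.75 CPM in HFD, against 13.8 and 9.28 CPM in NCD, with overlapping diets. Adamts18 had 6.16 and 6.17 CPM in HFD, against 4.42 and 4.89 CPM in NCD, the diets lying apart, and Adamts17 had 0.872 and 1.31 CPM in HFD, against 1.1 and 1.71 CPM in NCD.

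The inhibitors did not move as a group. Timp1, an inducible inhibitor that binds the MMP9 precursor, had 21.0 and 20.8 CPM in HFD, against 3.92 and 4.78 CPM in NCD (log2 change 2.27 ± 0.145, SE; edgeR adjusted p = 3.62e-04). Timp2, a broadly expressed inhibitor and partner of MT1-MMP, had 76.9 and 83.3 CPM in HFD, against 40.0 and 42.5 CPM in NCD (log2 change 0.96 ± 0.0732, SE; edgeR adjusted p = 6.05e-04). Timp3, the matrix-bound inhibitor, had 136 and 140.0 CPM in HFD, against 140.3 and 143 CPM in NCD (log2 change -0.04 ± 0.0485, SE; edgeR adjusted p = 0.604). Its HFD libraries lay just below its NCD libraries, and its log2 change ran from -0.06 to -0.01 over the alternatives tried. Timp4, the lowest TIMP per kilobase, had 2.86 and 3.02 CPM in HFD, against 3.06 and 2.36 CPM in NCD, with overlapping diets, and did not pass (edgeR adjusted p = 0.761). Timp1, Timp3 and Timp4 lie within the genes Syn1, Syn3 and Syn2 on the opposite strand. Timp3 shares 21.3% of its exon bases with Syn3, which had 141 and 149 counts in HFD and 145 and 99 counts in NCD, against 8424 and 7927 counts of Timp3 in HFD and 9047 and 8907 counts in NCD. Timp1 shares no exon base with Syn1.

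The make-up of the inhibitor transcripts differed between diets. Levels of different genes can be set side by side per kilobase of merged exons. On that scale Timp1, a short gene, took 39.1% and 37.5% of the summed TIMP level in HFD, against 13.6% and 15.7% in NCD, and Timp3 took 27.6% and 27.5% in HFD, against 53.1% and 51.3% in NCD. The share of Timp2 was 32.6% and 34.2% in HFD, against 31.7% and 31.8% in NCD. By level per kilobase among the 46 genes, Timp3 was at rank 8 in HFD and rank 2 in NCD, with 17.0 CPM per kilobase in HFD and 17.4 in NCD. Mmp3 was at rank 1 in HFD and rank 9 in NCD, with 48.1 CPM per kilobase in HFD and 3.77 in NCD. Mmp9 was at rank 10 in HFD and rank 26 in NCD, with 8.56 CPM per kilobase in HFD and 0.351 in NCD. Ranks carry no error and are given as a description.

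**Figure D4:**
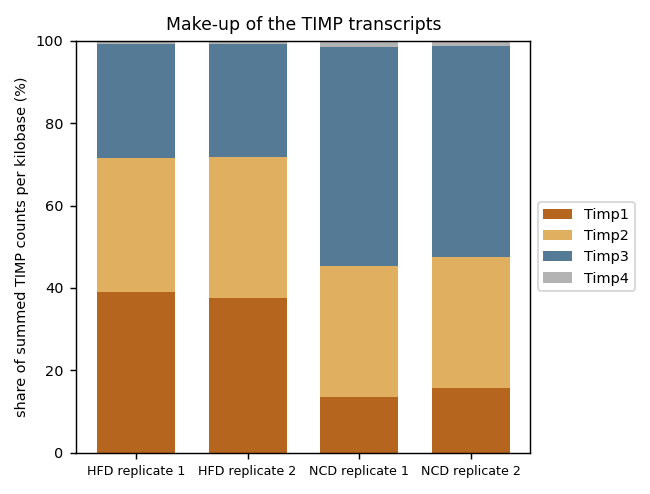
Share (%) of each TIMP gene in the summed TIMP counts per kilobase of merged exons, 1 bar per library, HFD bars left of NCD bars. Timp1 takes 39.1% and 37.5% of the HFD bars against 13.6% and 15.7% of the NCD bars, and Timp3 27.6% and 27.5% against 53.1% and 51.3%.

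Protease and inhibitor sums were then set against each other as transcript levels, since protein and enzyme activity were not measured. No test was made of these sums and quotients, whose members were chosen with earlier results known. Sums use unscaled library totals. MMP genes summed to 724 and 688 CPM in HFD, against 321 and 292 CPM in NCD, a ratio of 2.3. ADAMTS genes summed to 507 and 505 CPM in HFD, against 192 and 189 CPM in NCD, a ratio of 2.65. TIMP genes summed to 237 and 247 CPM in HFD, against 187 and 193 CPM in NCD, a ratio of 1.27. Summed proteases over summed TIMPs were 5.19 and 4.84 in HFD, against 2.74 and 2.5 in NCD in CPM, and 4.18 and 4.00 in HFD, against 2.73 and 2.47 in NCD per kilobase. The TIMP ratio of HFD over NCD depended on the scale, at 1.84 per kilobase, where short Timp1 weighs more. Both scales gave a higher quotient of proteases to TIMPs in each HFD library than in each NCD library.

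The single pairs of enzyme and inhibitor shown here gave the same order, each enzyme gene having a higher fold change than its inhibitor gene. Other pairs go the other way, since Timp1 rose 4.81-fold, against 2.66-fold for Mmp14 and 1.48-fold for Mmp12. The quotient of Mmp9 over Timp1 counts was 1.53 and 1.36 in HFD, against 0.289 and 0.283 in NCD. That of Mmp2 over Timp2 was 0.364 and 0.45 in HFD, against 0.179 and 0.175 in NCD, and that of Mmp14 over Timp2 was 2.53 and 2.42 in HFD, against 1.86 and 1.74 in NCD. For Adamts4 over Timp3 it was 0.939 and 0.901 in HFD, against 0.323 and 0.291 in NCD. These pairs share libraries with the tests above and are no independent evidence. Quotients of counts do not correct for the length of the genes, which cancels only between libraries.

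**Figure D5:**
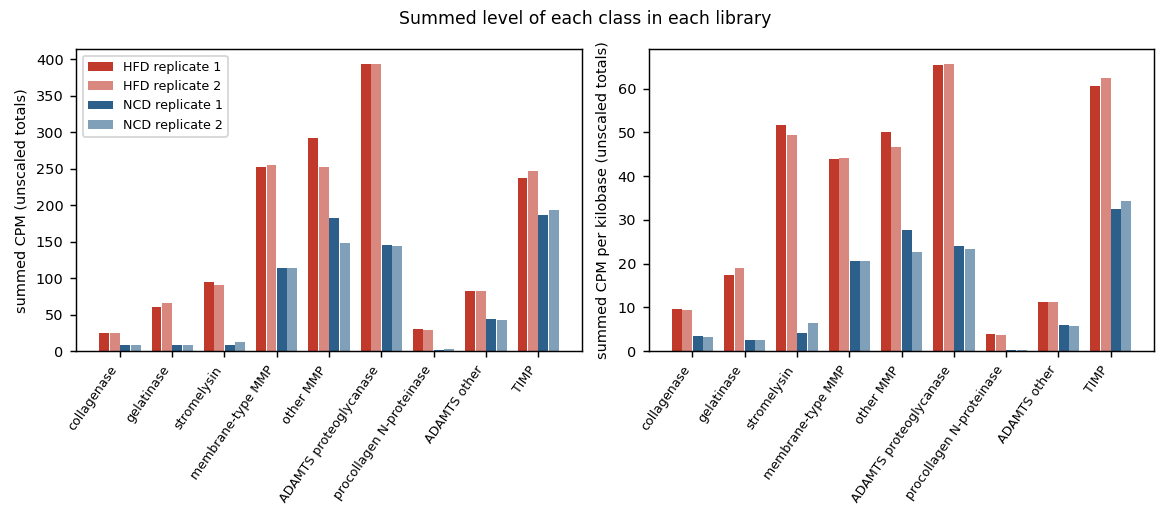
Summed level of each class in each library, as CPM on unscaled totals (left) and as CPM per kilobase of merged exons (right), HFD bars in red to the left of NCD bars in blue. Gelatinases, stromelysins and procollagen N-proteinases have the highest ratios. TIMPs have the lowest ratio on both panels, on the right by a small margin (1.84, against 1.92 for the other ADAMTS genes).

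Other parts of the proteolytic system rose as well. Plasmin, a serine protease released from plasminogen, activates several MMP precursors. Of 8 genes of the plasminogen system 6 rose and 1 fell. The counts for this and the later lists stand against 17.9% higher and 14.5% lower over all tested genes. Plat, encoding tissue plasminogen activator, had 125 and 126 CPM in HFD, against 43.7 and 47.7 CPM in NCD (log2 change 1.46 ± 0.066, SE; edgeR adjusted p = 1.35e-04), and Plaur, the urokinase receptor, had 102 and 109 CPM in HFD, against 45.0 and 44.8 CPM in NCD (log2 change 1.23 ± 0.0639, SE; edgeR adjusted p = 2.01e-04). The gene that fell was Plg, the plasminogen gene, which stayed under 1 CPM in all libraries and is named after its values were seen. Of 9 activators, binders and other inhibitors 5 rose and 1, Pcsk6, fell. A2m, a broad protease trap, had 7.69 and 6.84 CPM in HFD and no count in NCD, at least 38.3-fold higher by the same floor. Lrp1, the receptor that clears MMPs and their complexes, had 637 and 601 CPM in HFD, against 351 and 313 CPM in NCD (log2 change 0.90 ± 0.0664, SE; edgeR adjusted p = 5.42e-04). Pcsk5, a furin-like convertase, had 3.28 and 3.44 CPM in HFD, against 0.589 and 0.627 CPM in NCD (log2 change 2.46 ± 0.27, SE; edgeR adjusted p = 0.00199).

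Of 9 ADAM genes, membrane-bound relatives that shed cell-surface proteins, 8 were tested, 5 rose and none fell. Over all tested genes the shares were 17.9% higher and 14.5% lower. Adam12, an enzyme of activated stroma, had 28.1 and 25.6 CPM in HFD, against 10.4 and 10.9 CPM in NCD (log2 change 1.34 ± 0.106, SE; edgeR adjusted p = 6.71e-04), Adam8, a leukocyte ADAM, had 63.6 and 64.4 CPM in HFD, against 38.0 and 34.4 CPM in NCD (log2 change 0.82 ± 0.0755, SE; edgeR adjusted p = 0.00111), and Adam19 had 36.7 and 42.5 CPM in HFD, against 22.8 and 21.8 CPM in NCD (log2 change 0.83 ± 0.0998, SE; edgeR adjusted p = 0.00275). Of 5 ADAMTS-like genes, which lack the protease domain, 4 rose and none fell. Adamtsl3 had 0.84 and 1.06 CPM in HFD, against 0.186 and 0.0643 CPM in NCD, Adamtsl1 had 1.21 and 0.777 CPM in HFD, against 0.124 and 0.273 CPM in NCD and Adamtsl4, a fibrillin-binding protein, had 6.16 and 7.61 CPM in HFD, against 4.47 and 3.75 CPM in NCD (edgeR adjusted p = 0.0249, 0.0368 and 0.0381). Of 17 matrix substrates 15 were tested and 14 rose, none falling. Dcn, the proteoglycan decorin, had 185 and 199.9 CPM in HFD, against 20.9 and 19.4 CPM in NCD (log2 change 3.26 ± 0.0739, SE; edgeR adjusted p = 3.59e-05). Acan, encoding the aggrecan after which the aggrecanases are named, had no count, and Vcan, encoding versican, had 64.8 and 69.2 CPM in HFD, against 8.83 and 9.54 CPM in NCD.

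Markers of other cells moved between the diets beside these genes. For the counts that follow, 17.9% of all tested genes were higher and 14.5% lower. All 10 fibroblast markers rose, and their sum was 1632 and 1625 CPM in HFD, against 114 and 115 CPM in NCD. Col1a1, Col1a2, Col3a1 and Dcn are in this list and also among the matrix substrates above, so the lists are not independent. The 8 lymphocyte markers all rose, with sums of 368 and 383 CPM in HFD, against 48.9 and 47.8 CPM in NCD, and so did the 7 acinar markers, with sums of 2304 and 2561 CPM in HFD, against 334 and 346 CPM in NCD. Of 10 macrophage markers 4 rose and 3 fell, and of 8 endothelial markers 4 rose and 2 fell, with sums of 2114 and 2109.6 CPM in HFD, against 1829.5 and 1866 CPM in NCD. Of 6 pericyte and smooth muscle markers 4 rose, with sums of 306 and 309.5 CPM in HFD, against 143 and 135 CPM in NCD. Their part in the changes of protease and TIMP genes was not tested. Neutrophils are a known source of MMP8, MMP9 and MT6-MMP, but their part in the changes of these genes was not tested. Of 10 neutrophil markers none had enough counts to be tested, S100a8, Mpo, Elane, Ly6g, Retnlg and Ngp had no count, and the sum was 0.582 and 0.423 CPM in HFD, against 0.0775 and 0.177 CPM in NCD. Of 5 duct markers 2 rose and 1 fell, with sums of 294 and 310.5 CPM in HFD, against 472 and 480.1 CPM in NCD. Krt7, which fell, took most of the duct sum, with means of 241 CPM in HFD and 445 CPM in NCD, while Krt19 and Sox9 rose. Of 4 mesothelial markers 1 rose and 1 fell, with sums of 19.3 and 20.8 CPM in HFD, against 38.5 and 38.1 CPM in NCD. Msln, which fell, took most of the mesothelial sum, with means of 13.1 CPM in HFD and 37.6 CPM in NCD, while Wt1 rose.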

How the data were processed

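RNA-seq of 2 HFD and 2 NCD libraries was read from 1 table per library. These tables, as the authors deposited them, give raw whole-number counts for 55421 Ensembl genes. Build GRCm38 and the tools HISAT, DESeq (1.8.3) and featureCounts (1.5.0) are listed in the submitters' processing notes, with no role or settings. The kit was stranded per the labels' protocols, but how counting treated strand and multi-mapping reads is not given, so genes sharing exons across strands are uncertain. Symbols, positions and merged exon lengths came from GENCODE M21 on GRCm38. Genes passing filterByExpr with a minimum count of 10 were scaled by TMM and tested for diet by edgeR 4.0.16 (quasi-likelihood F test, R 4.3.3), adjusted by Benjamini-Hochberg over all 21563 tested genes, without a replicate block. Standard errors were taken from the F statistic. The common biological coefficient of variation was 19.1%. Low counts were 1.64 to 1.74 times as frequent at multiples of 4 as at their neighbours, so the floor for genes without a count was set at 12 counts per library. Floors cover counting error only. Alternatives were DESeq2 1.42.0, limma-voom (limma 3.58.1), other scalings, no filter, counts divided by 4, a replicate block and leaving out each library.

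Members with a mean of at least 1 CPM in a diet or a passed test were named with values, as were Mmp2, Mmp9, Mmp14, Timp1, Timp2 and Timp3 in any case, and the 3 genes with the smallest p of each pathway list. Of these, 1 gene, and 1 overlap of a member with another gene, are not reported here. Other genes, such as Mmp10, Mmp16, Mmp27, Adamts3, Adamts8, Vwf and Vcan, and the promoter motifs and windows, were chosen after values were seen. Members and lists were chosen with earlier results of these data known.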

Additional observations from a re-analysis of the deposited data

How the results depend on the processing

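Of the 27 members higher in HFD, 20 kept their direction and stayed under the threshold in all of the 11 alternatives. The number higher was 27 with DESeq2's test, with its size factors, with limma-voom, without the count filter and with library sizes lacking the most-counted gene, 25 with counts divided by 4, where Adamts13 and Adamts20 had too few counts to be tested, and 21 to 24 when 1 library was left out. The 1 member lower in HFD, Mmp24, was not called without the count filter, with the replicate block or without any 1 library, leaving 0 in each. Mmp24 is also 1 of the 12 members sharing exon bases with a counted gene, and without these 12, a choice made after seeing the data, 21 members were higher and 0 lower. Over all genes the number lower was 2015 to 2174 when 1 library was left out, the lowest without HFD replicate 1, against 3123 with all libraries. With the replicate number of the titles as a replicate block 25 members were higher, Adamts13 and Adamts20 being lost (edgeR adjusted p = 0.0665 and 0.0638), and 3252 genes were higher and 2583 lower in all. Nothing in the labels says that the numbers pair the libraries, and deviations of same-numbered libraries had a correlation of 0.00211 across genes. Of the 12 members that did not pass, none passed in any alternative and 7 reversed in some, Mmp10 to a log2 change of 0.10 without HFD replicate 2 or NCD replicate 1 (-0.69 to 0.10 over the libraries left out), Mmp16 to -0.04 without HFD replicate 2 and -0.32 without NCD replicate 2 (-0.32 to 0.48), Mmp27 to -0.17 and -0.15 without the same libraries (-0.17 to 0.78), Adamts3 to 0.18 without HFD replicate 2 and 0.63 without NCD replicate 1 (-0.70 to 0.63), Adamts6 to 0.18 without NCD replicate 1 (-0.39 to 0.18), Mmp28 to -0.10 without HFD replicate 2 (-0.10 to 0.38) and Timp4 to -0.06 without NCD replicate 2 (-0.06 to 0.31). Per kilobase, the log2 ratio of class sums was 1.10 for membrane-type MMPs, 1.47 for proteoglycanases, 0.883 for TIMPs, 1.59 for all MMPs and 1.44 for all ADAMTS genes, against 1.15, 1.44, 0.347, 1.20 and 1.41 in CPM. With 1 library left out it was 0.318 to 0.375 for TIMPs, 2.82 to 2.94 for gelatinases and 2.89 to 3.47 for stromelysins. A lone library left in a diet borrows its spread from the other diet in these fits.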
